A study of Mus musculus with 8 samples.

Results

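The genes described here are 10 genes of the acid-base machinery of intercalated cells, found by their symbols among the 55304 genes of a count table from mouse kidney. They are the transcription factor gene Foxi1, the anion exchanger genes Slc4a1, Slc26a4 and Slc4a9, the proton pump subunit genes Atp6v1b1, Atp6v0d2 and Atp6v1g3, the ammonia transporter genes Rhcg and Rhbg, and the receptor gene Kit. All 10 symbols were found. The study sequenced polyadenylated RNA of freshly isolated kidney cells that bind Dolichos biflorus lectin (DBA), which is used to collect cells of the collecting duct. The 4 groups of 2 libraries were WT with vehicle, WT with 666-15, ADPKD with vehicle and ADPKD with 666-15, 8 libraries in all. ADPKD stands for autosomal dominant polycystic kidney disease, in which tubules widen into cysts, and 666-15 is a small molecule that inhibits the transcription factor CREB. Doses of 5 mg/kg, or vehicle (DMSO), were given once a day in rounds of 5 days with 2 days of rest between them, from postnatal day 11 and for 3 weeks. Neither the sex of the mice nor the mutation behind ADPKD is stated in the labels, and nothing there ties a library to an animal. The p-values below therefore measure the spread between libraries, which may be technical. The 2 WT libraries with 666-15 are an exception, as they differ in sex-linked genes.

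Intercalated cells are the cells of the collecting duct and connecting tubule that set the acid content of urine, and they lie among the principal cells, which handle sodium and water. Type A cells secrete acid: a vacuolar proton pump (V-ATPase) in the apical membrane moves protons into the urine and the exchanger AE1, the product of Slc4a1, returns bicarbonate to the blood. Type B cells secrete bicarbonate through the apical exchanger pendrin, the product of Slc26a4, and carry the exchanger AE4, the product of Slc4a9, on the opposite side. FOXI1 is the transcription factor on which the intercalated cell programme depends.

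Total counts per library ran from 15108793 to 19702638, and all 10 genes were among the 17440 that passed the filter on low counts. Slc4a1 passed through the other groups, because it had fewer than 10 counts in the 2 vehicle-treated ADPKD libraries. The WT library with 666-15, replicate 2, stood apart in sex-linked genes, with 17688 counts of Xist and 0 of Ddx3y. No other library had more than 8 counts of Xist. Replicate 1 of that group held 8 counts of Xist and 1776 of Ddx3y. The 2 libraries of that group are thus not technical repeats of 1 sample. Principal cell markers (12 genes) held 0.126% to 0.165% of all counts in vehicle-treated WT cells, and proximal tubule markers (12 genes), of a segment outside the collecting duct, held 1.46% to 1.71%. In vehicle-treated ADPKD cells these shares were 0.154% to 0.188% and 0.0155% to 0.0202%. The 10 intercalated cell genes together held 0.107% to 0.114% of counts in WT cells with vehicle, 0.214% to 0.260% in WT cells with 666-15, 0.0359% to 0.0368% in ADPKD cells with vehicle and 0.0676% to 0.0761% in ADPKD cells with 666-15. The ranges of the 4 groups did not overlap. In such bulk RNA, fewer cells of a type and less RNA per cell cannot be told apart.

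**Figure D1:**
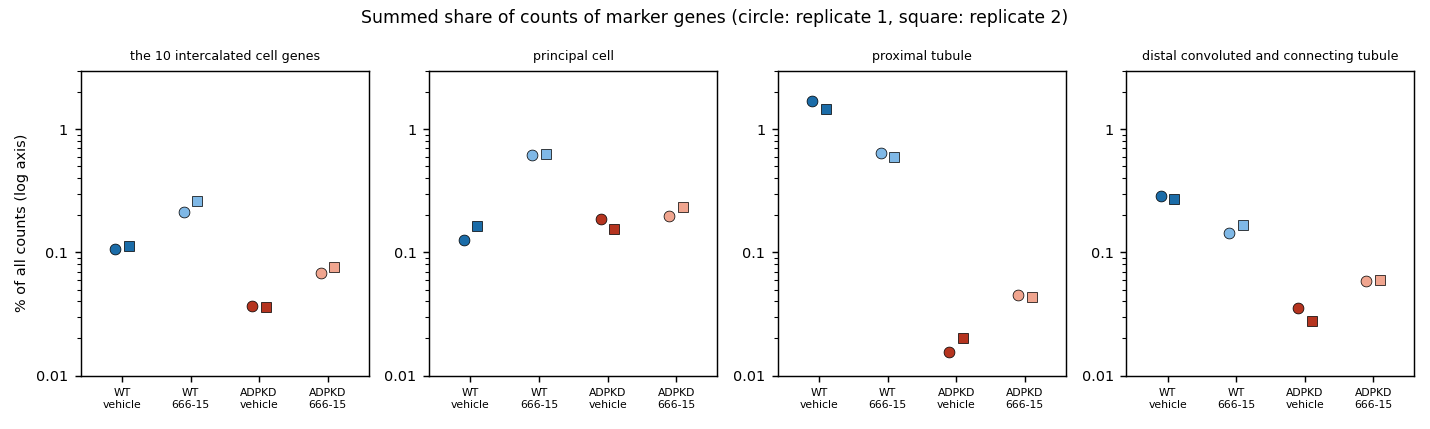
Share of all counts (percent, log axis) held by the 10 intercalated cell genes and by markers of principal cells, proximal tubule, and distal convoluted and connecting tubule, in each library. Within each genotype the intercalated cell share was higher with 666-15; the proximal tubule share was 1.46% to 1.71% in vehicle-treated WT cells and 0.0155% to 0.0202% in vehicle-treated ADPKD cells.

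With vehicle, 8 of the 10 genes were lower in ADPKD than in WT cells and none was higher by edgeR's quasi-likelihood test with Benjamini-Hochberg adjustment over all 17440 genes, at an adjusted p of 0.05. That test called 27.6% of all genes tested lower and 28.8% higher in this comparison. The genes that passed were Foxi1, Slc4a1, Slc26a4, Slc4a9, Atp6v1b1, Atp6v0d2, Atp6v1g3 and Rhbg, and their log2 fold changes ran from -8.33 (Slc4a1) to -1.19 (Atp6v0d2). The median over the 10 genes was -1.32 on the log2 scale, against 0.05 over all genes tested. Rhcg and Kit did not pass. The call of Atp6v0d2 was lost when any of the 4 libraries compared was left out, while its value ran from -1.34 to -1.09. Rhcg had a log2 fold change of -0.97 and passed without ADPKD vehicle replicate 1, and was at -0.19 without replicate 2. Kit was at -1.04 and passed without ADPKD vehicle replicate 2, and was at -0.14 without replicate 1. Both also passed without the filter on low counts and by DESeq2 (adjusted p = 0.00987 and 0.0261).

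With 666-15, 6 of the 10 genes rose in ADPKD cells and none fell, where 22.3% of all genes tested were called higher and 19.1% lower (edgeR). They were Foxi1, Slc4a1, Slc26a4, Slc4a9, Atp6v1b1 and Atp6v0d2. The median log2 fold change was 1.10 over the 10 genes and 0.02 over all genes. The vehicle-treated ADPKD libraries also serve in the comparison of genotypes, so the values of the 2 comparisons are not independent. The call of Atp6v0d2 was lost without ADPKD vehicle replicate 1 (adjusted p = 0.111), ADPKD vehicle replicate 2 (0.0695) or ADPKD 666-15 replicate 2 (0.0684). Across 17252 genes, fold changes in this comparison had a Spearman correlation of -0.353 with the GC content of the gene, and with that trend removed 7 of the 10 genes passed, Rhcg joining them. Many markers of other segments also fell in vehicle-treated ADPKD cells and rose with 666-15 (edgeR). Of 12 proximal tubule markers 12 were lower with vehicle, and 10 rose and 1 fell. Of 7 distal convoluted and connecting tubule markers 5 were lower and 1 higher, and 4 rose and 1 fell. Of 6 thick ascending limb markers 5 were lower and 0 higher, and 3 rose and 0 fell. Principal cell markers differed: of 11 tested 6 were higher and 3 lower with vehicle, and 7 rose and 1 fell with 666-15. Of all genes 27.6% were lower and 28.8% higher with vehicle. In WT cells 666-15 lowered 9 proximal, 3 distal and connecting tubule and 4 thick ascending limb markers and raised none. It raised 10 principal cell markers there and lowered 0, against 13.9% of all genes called higher and 11.6% lower.

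In WT cells 666-15 also raised 6 of the 10 genes and lowered none, with 13.9% of all genes called higher and 11.6% lower (edgeR). They were Foxi1, Slc4a1, Slc26a4, Slc4a9, Atp6v1b1 and Rhcg, so 5 genes passed in both genotypes, which share no library; 6.55% of all genes tested were called higher in both. The median was 0.92 on the log2 scale, against -0.01 over all genes. The calls of Foxi1 and Slc26a4 were less stable than the other 4: Foxi1 was lost without WT vehicle replicate 1 (adjusted p = 0.0718) or WT 666-15 replicate 2 (0.0542), and Slc26a4 without WT vehicle replicate 1 (0.0702) or replicate 2 (0.126). Without WT 666-15 replicate 2, the library with Xist, 5 genes passed.

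When both genotypes had received 666-15, 9 of the 10 genes were still lower in ADPKD cells, where 24.5% of all genes were called lower and 21.8% higher (edgeR). Atp6v0d2 did not pass. The median was -1.42 on the log2 scale, against -0.03 over all genes. Without WT 666-15 replicate 2, and likewise without ADPKD 666-15 replicate 1, 6 genes passed, the calls of Foxi1, Atp6v1g3 and Kit being lost in each case. The calls of Foxi1 and Kit were also lost without either WT vehicle library or without WT 666-15 replicate 1, and that of Kit without ADPKD 666-15 replicate 2. The WT vehicle libraries are not in this comparison but share in the 1 estimate of the spread. Without either of them Foxi1 stayed at -0.61 and Kit at -0.71, against -0.61 and -0.70 with all libraries. With the GC trend removed Foxi1 and Kit did not pass and Atp6v0d2 did. Atp6v0d2 was at -1.11 and passed without WT 666-15 replicate 1, and was at -0.11 without replicate 2; it also passed without the robust option of the model. The response to 666-15 itself differed between the genotypes for 3 of the 10 genes (interaction term, edgeR), where 13.6% of all genes were called for a larger and 13.0% for a smaller value in ADPKD cells. It was larger in ADPKD cells for Slc4a1 and Slc26a4, and smaller for Rhcg. Which genes passed the interaction changed when single libraries were left out, WT 666-15 replicate 2 among them.

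**Figure D2:**
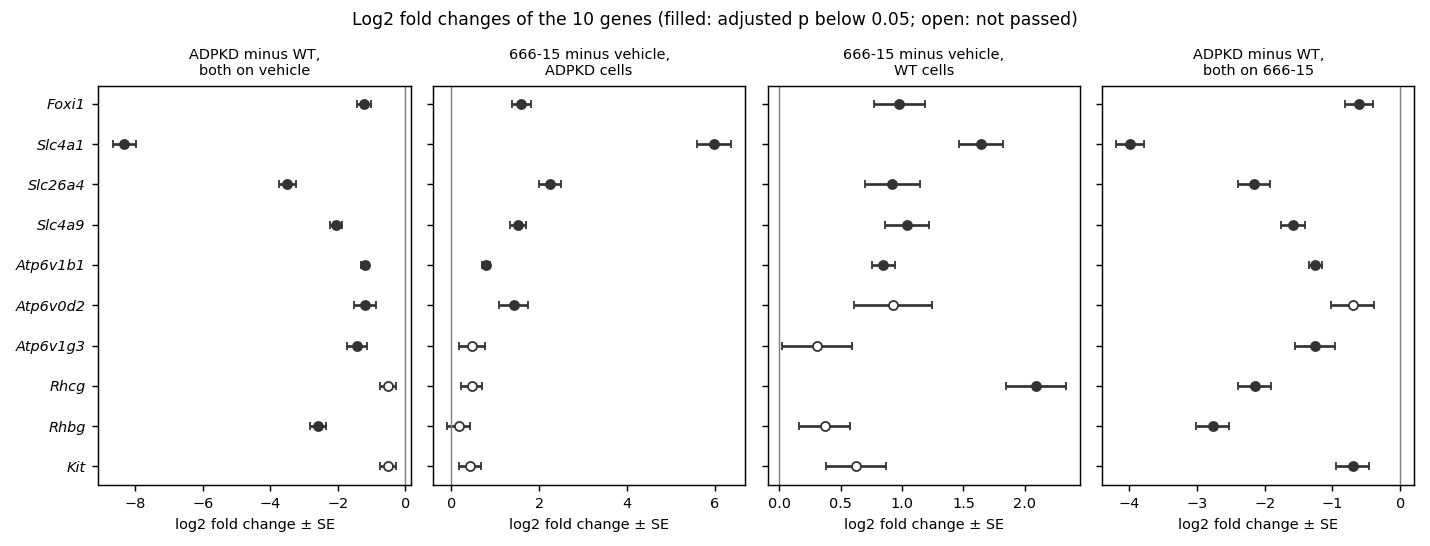
Log2 fold change (x axis) and its standard error for each of the 10 genes in 4 comparisons. All 10 values lie below 0 for ADPKD minus WT with vehicle and above 0 for 666-15 minus vehicle in both genotypes; filled points passed the test (8, 6, 6 and 9 genes from left to right). The panels have separate x axes.

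Foxi1 (chr11:34204338-34208089 in GRCm38) encodes the forkhead factor of intercalated cells. Its level, in counts scaled to a library total of 1000000 after TMM adjustment (CPM), was 37.4 and 39.6 in the 2 vehicle-treated WT libraries, 72.5 and 78.9 in WT cells with 666-15, 12.6 and 20.4 in ADPKD cells with vehicle, and 41.3 and 57.8 in ADPKD cells with 666-15. The WT cells with 666-15 were highest and the ADPKD cells with vehicle lowest, with no overlap of these 2 groups with any other. With vehicle Foxi1 was lower in ADPKD than in WT cells by a log2 fold change of -1.22 ± 0.22 (SE, edgeR adjusted p = 0.000698). With 666-15 it rose by 1.59 ± 0.22 in ADPKD cells (adjusted p = 0.000273) and by 0.98 ± 0.21 in WT cells (adjusted p = 0.00618, edgeR). The mean in ADPKD cells with 666-15 was 129% of the mean in vehicle-treated WT cells, and their lowest library lay above both of those. The difference between the 2 responses was 0.61, with a 95% interval from -0.05 to 1.28 (adjusted p = 0.164, edgeR); it was 1.03 and passed without ADPKD vehicle replicate 2, and was 0.31 without replicate 1.

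Slc4a1 (chr11:102348824-102366203), the type A exchanger gene, had the widest range of the 10 genes as a ratio of its highest to its lowest level. It was at 54.2 and 70.2 CPM in WT cells with vehicle, 175 and 212 in WT cells with 666-15, 0.104 and 0.271 in ADPKD cells with vehicle, and 10.02 and 14.5 in ADPKD cells with 666-15. The vehicle-treated ADPKD libraries held 2 and 5 counts of Slc4a1, against 1089 and 1188 in WT libraries with vehicle. No 2 groups overlapped. The log2 fold change between genotypes with vehicle was -8.33 ± 0.34 (95% interval from -9.08 to -7.58, edgeR adjusted p = 6.1e-09), and it was -9.15 without ADPKD vehicle replicate 2. With 666-15 Slc4a1 rose in ADPKD cells by 5.98 ± 0.39 (adjusted p = 2.31e-06; 6.80 without ADPKD vehicle replicate 2), to 19.7% of its mean in vehicle-treated WT cells. In WT cells it rose by 1.64 ± 0.18 (edgeR adjusted p = 7.39e-05), so that ADPKD cells with 666-15 remained below WT cells with 666-15 by a log2 fold change of -3.99 ± 0.21. The response in ADPKD cells was larger by 4.35 ± 0.48 on the log2 scale (adjusted p = 0.000128, edgeR; 5.16 without ADPKD vehicle replicate 2).

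Slc4a1 is also a gene of red blood cells, and counts per gene do not tell its kidney transcript from its erythroid one. Of 12 erythroid markers 9 were tested. In vehicle-treated ADPKD cells 4 were lower and 2 higher than in WT cells (edgeR), against 27.6% and 28.8% of all genes tested. The summed level of the 12 markers was 15.3 to 35.5 CPM in WT cells with vehicle and 29.8 to 34.7 with 666-15. In ADPKD cells it was 11.6 to 14.1 with vehicle and 6.25 to 11.6 with 666-15. With 666-15, 1 of the 9 was higher and 1 lower in ADPKD cells, against 22.3% and 19.1% of all genes. The part of the erythroid markers in the result for Slc4a1 was not tested.

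Slc26a4 (chr12:31519827-31559969), the pendrin gene of type B cells, was at 200 and 171 CPM in WT cells with vehicle, 265 and 436 in WT cells with 666-15, 17.3 and 15.6 in ADPKD cells with vehicle, and 69.8 and 86.6 in ADPKD cells with 666-15. The groups did not overlap, and the spread was widest in WT cells with 666-15. ADPKD cells with vehicle differed from WT cells by -3.49 ± 0.26 on the log2 scale (edgeR adjusted p = 1.12e-05), which left 8.88% of the WT mean. The rise with 666-15 was 2.25 ± 0.25 in ADPKD cells (adjusted p = 0.000315) and 0.92 ± 0.23 in WT cells (adjusted p = 0.0214, edgeR). The value in WT cells was 0.51 without WT 666-15 replicate 2, the library with Xist, and 1.23 without replicate 1. The difference between the responses was 1.33 ± 0.33 (edgeR adjusted p = 0.0228). It did not pass without WT vehicle replicate 1, either ADPKD vehicle library or ADPKD 666-15 replicate 2 (adjusted p from 0.0657 to 0.0859).

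Slc4a9, the other type B exchanger gene, had 178 and 206 CPM in WT cells with vehicle, 320 and 470 in WT cells with 666-15, 47.3 and 44.9 in ADPKD cells with vehicle, and 116 and 148 in ADPKD cells with 666-15. The order of the 4 groups was that of Slc26a4, again without overlap. Its log2 fold changes were -2.06 ± 0.19 between genotypes with vehicle (edgeR adjusted p = 8.98e-06), 1.52 ± 0.19 with 666-15 in ADPKD cells (0.000191) and 1.04 ± 0.18 in WT cells (0.00217). The ratio of Slc26a4 to Slc4a9 counts was 1.12 and 0.832 in WT cells with vehicle, 0.366 and 0.347 in ADPKD cells with vehicle, and 0.600 and 0.586 in ADPKD cells with 666-15. The pendrin gene was thus lower relative to Slc4a9 in all ADPKD libraries than in vehicle-treated WT cells, a difference that was not tested. Slc4a9 kept 24.0% of the WT mean in vehicle-treated ADPKD cells, and reached 68.8% of it with 666-15.

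**Figure D3:**
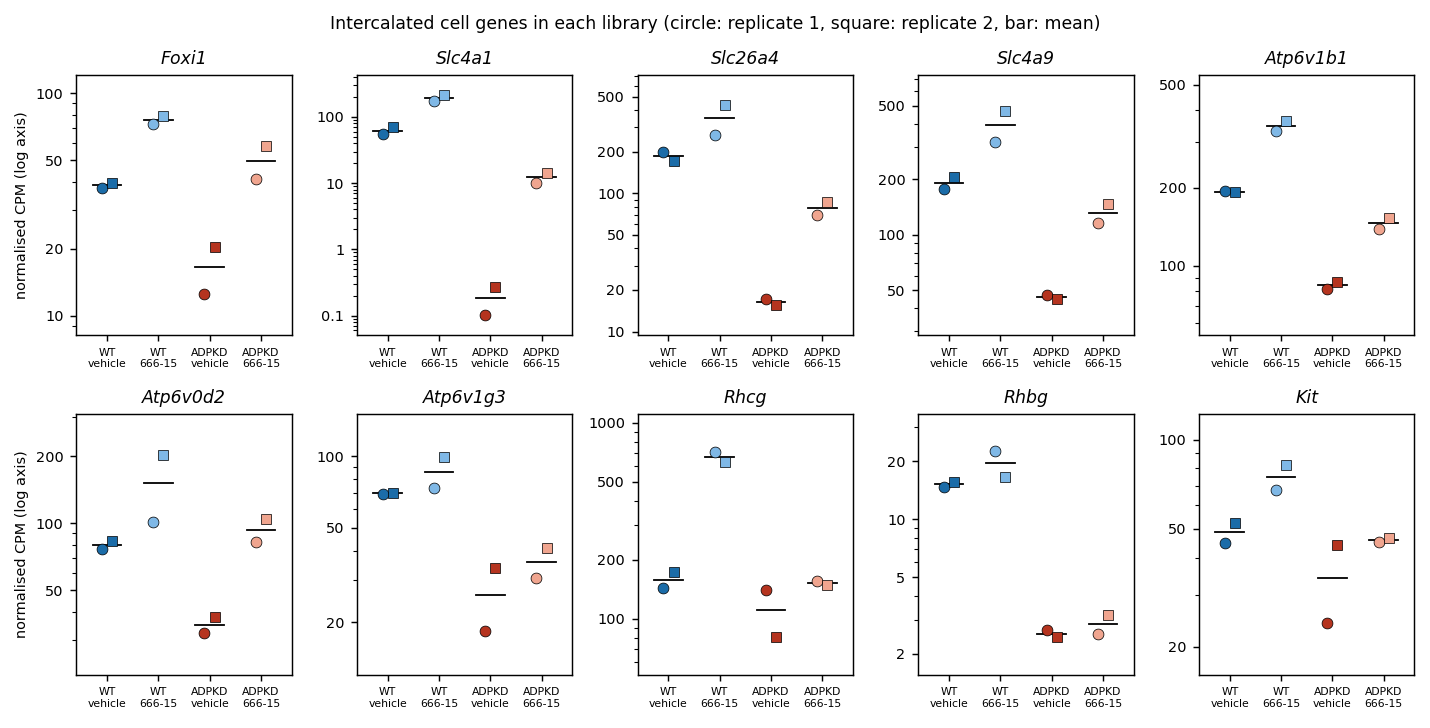
Normalised CPM (log axis, a separate range for each gene) of the 10 genes in the 8 libraries; bars are group means. Slc4a1 spans from 0.104 to 212 CPM, while Rhcg stands out only in WT cells with 666-15 (714 and 635 CPM).

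The type A and type B exchanger genes were compared as a ratio of counts within each library, which does not depend on how libraries are scaled. The ratio of Slc4a1 to Slc26a4 was 0.272 and 0.410 in WT cells with vehicle, 0.660 and 0.487 in WT cells with 666-15, 0.00599 and 0.0174 in ADPKD cells with vehicle, and 0.144 and 0.167 in ADPKD cells with 666-15. Every ADPKD library lay below every WT library. The mean log2 ratio was lower in ADPKD by -3.24 (exact permutation test within treatment, two-sided p = 0.0556, the smallest that 36 arrangements allow). Within vehicle the difference was -4.61 and within 666-15 it was -1.87, where the exact test cannot go below 0.333. So the type A exchanger gene was low relative to the type B gene in all 4 ADPKD libraries; whether the 2 treatments differ in that ratio was not tested.

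Other genes of the 2 cell types did not divide in the same way. Aqp6, which encodes a water channel in vesicles of type A cells, fell in vehicle-treated ADPKD cells by 2.83 on the log2 scale (edgeR adjusted p = 6.74e-09) and rose with 666-15 by 3.46 in ADPKD cells (6.21e-08) and by 2.03 in WT cells (8.27e-07). Its ratio to Slc26a4 was 0.415 and 0.545 in WT cells with vehicle and 0.760 and 0.742 in ADPKD cells with vehicle, so that it was higher in ADPKD, the opposite of the ratio of Slc4a1. With 666-15 the ratio of Aqp6 to Slc26a4 was 1.22 and 0.910 in WT cells and 1.75 and 1.73 in ADPKD cells. These ratios were not tested.

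Of 6 type A genes (Slc4a1, Kit, Aqp6, Slc26a7, Dmrt2 and Adgrf5) 4 were lower and 1 higher in vehicle-treated ADPKD cells (edgeR), with a median log2 fold change of -2.07. Of 6 type B genes (Slc26a4, Slc4a9, Insrr, Hmx2, Oxgr1 and Slc4a8) 5 were lower and 1 higher, with a median of -3.45, where 27.6% of all genes were lower and 28.8% higher. With 666-15, 3 type A and 6 type B genes rose in ADPKD cells (medians 1.74 and 2.21), and 4 of each rose in WT cells (1.49 and 0.98), against 22.3% and 13.9% of all genes. Slc26a7, an anion exchanger gene of type A cells, changed by -3.34, 3.04 and 1.33 in the same 3 comparisons, and Insrr, which encodes an insulin receptor-related receptor that senses alkaline pH, by -4.87, 3.48 and 1.55 (all passed). The exceptions were the type A transcription factor gene Dmrt2, higher in vehicle-treated ADPKD cells by 1.12, and Slc4a8, a sodium-driven bicarbonate exchanger gene, higher by 0.55. The call of Dmrt2 was lost without WT vehicle replicate 1 (edgeR adjusted p = 0.0842) or ADPKD vehicle replicate 2 (0.0782). Dmrt2 was low, at 1.59 to 6.96 CPM. Adgrf5, which endothelial cells also express, was lower by 1.31 in log2 terms in vehicle-treated ADPKD cells, where the 6 endothelial markers summed to 840 to 1039 CPM against 950 to 1101 in WT cells. Hmx2 had few counts, from 0 to 79 per library.

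**Figure D4:**
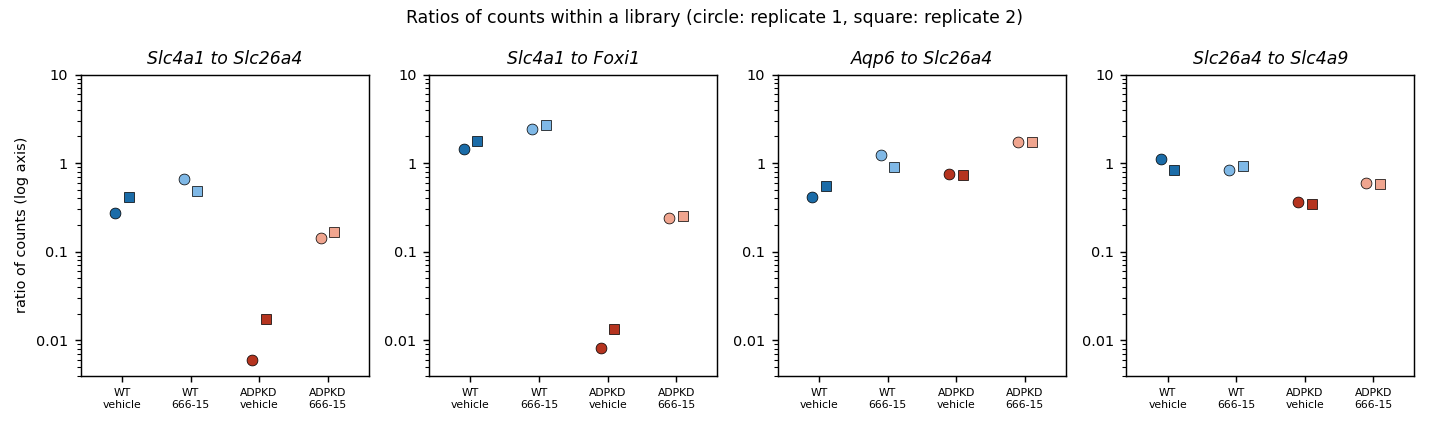
Ratio of counts of 2 genes within each library (log axis, 1 scale for the 4 panels). Slc4a1 lies below Slc26a4 in every library, and further below in ADPKD than in WT cells. It lies below Foxi1 in ADPKD cells only. The ratio of Aqp6 to Slc26a4 is higher in ADPKD than in WT cells with vehicle, at 0.742 and 0.760 against 0.415 and 0.545.

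Measured against the transcription factor gene, the exchangers also moved apart. The ratio of Slc4a1 to Foxi1 counts was 1.45 and 1.77 in WT cells on vehicle, 0.00826 and 0.0133 in ADPKD cells on vehicle, and 0.2425 and 0.2503 in ADPKD cells with 666-15. The ratio of Slc26a4 to Foxi1 was 5.33 and 4.33, then 1.38 and 0.763, then 1.69 and 1.50, in the same 3 groups. Foxi1 in ADPKD cells with 666-15 was thus above its level in vehicle-treated WT cells while both exchanger genes stayed low relative to it. For the pump subunit gene Atp6v1b1 the ratio to Foxi1 was 5.18 and 4.88 in WT libraries on vehicle and 6.48 and 4.26 in ADPKD libraries on vehicle, which overlap; in ADPKD libraries with 666-15 it was 3.36 and 2.64, below the other 6 libraries.

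The proton pump consists of many subunits, several of which exist as a widely expressed isoform and an isoform enriched in intercalated cells and a few other specialised cells. Atp6v1b1 encodes the B1 subunit, Atp6v0d2 the d2 subunit and Atp6v1g3 the G3 subunit of the second kind. Promoters are shown for Atp6v1b1 and Atp6v1g3, which held a forkhead motif among the 6 members read, and for Slc26a4 as a member without one. The sequences are from RefSeq (GRCm38.p6), run from 250 bases before to 50 bases after the annotated start, and are on the strand of the gene; capitals mark the match. The windows are chr6:83742767-83743066 (plus strand) for Atp6v1b1, chr1:138273488-138273787 (plus strand) for Atp6v1g3 and chr12:31559935-31560234 (minus strand) for Slc26a4.
Atp6v1b1: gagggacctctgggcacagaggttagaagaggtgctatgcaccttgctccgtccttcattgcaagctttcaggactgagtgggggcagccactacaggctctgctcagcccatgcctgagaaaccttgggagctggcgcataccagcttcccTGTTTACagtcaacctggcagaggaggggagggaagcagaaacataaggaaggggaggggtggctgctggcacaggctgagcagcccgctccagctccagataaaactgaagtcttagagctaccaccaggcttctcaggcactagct
Atp6v1g3: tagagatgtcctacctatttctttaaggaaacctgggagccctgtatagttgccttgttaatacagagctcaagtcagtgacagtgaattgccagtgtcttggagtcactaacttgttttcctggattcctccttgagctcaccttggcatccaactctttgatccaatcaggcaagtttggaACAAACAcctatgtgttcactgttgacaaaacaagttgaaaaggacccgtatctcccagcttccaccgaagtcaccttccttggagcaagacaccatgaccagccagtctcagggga
Slc26a4: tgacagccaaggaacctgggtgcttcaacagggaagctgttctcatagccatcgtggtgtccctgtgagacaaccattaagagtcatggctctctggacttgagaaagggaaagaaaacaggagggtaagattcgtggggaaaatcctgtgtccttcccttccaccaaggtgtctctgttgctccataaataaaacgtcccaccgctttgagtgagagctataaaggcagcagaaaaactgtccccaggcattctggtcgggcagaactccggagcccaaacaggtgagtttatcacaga
The letters TGTTTAC and TGTTTGT, which are forms of the forkhead core and share their first 5 letters, were searched on both strands. Atp6v1b1 holds TGTTTAC on its own strand, beginning 98 bases before the start, and Atp6v1g3 holds TGTTTGT on the opposite strand (printed as ACAAACA), 67 bases before the start. Of all 32851 promoter windows of that length 9.95% hold either motif. Promoters were read for 6 of the 10 genes, the other 3 being those of Foxi1, Kit and Rhcg. No window of Slc4a1, Slc4a9, Atp6v0d2 or Rhbg was read. The CREB motif TGACGTCA, and the TGACG that it contains, were in no window of the 6 genes; 1.79% and 20.8% of all windows hold them.

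Atp6v1b1 (chr6:83742990-83758855) was at 194 and 193 CPM in WT cells with vehicle, 333 and 363 in WT cells with 666-15, 81.3 and 86.9 in ADPKD cells with vehicle, and 139 and 153 in ADPKD cells with 666-15. The 2 libraries of each group lay close together and the groups were well apart. It fell in vehicle-treated ADPKD cells by 1.20 ± 0.10 on the log2 scale (edgeR adjusted p = 3.12e-07). With 666-15 it rose by 0.79 ± 0.10 in ADPKD cells (4.91e-05) and by 0.85 ± 0.10 in WT cells (3.57e-05). The difference between these responses was -0.05, with a 95% interval from -0.35 to 0.24.

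Atp6v0d2 was at 76.2 and 83.6 CPM in WT cells with vehicle, 101 and 202 in WT cells with 666-15, 32.1 and 37.8 in ADPKD cells with vehicle, and 82.5 and 104 in ADPKD cells with 666-15. The ADPKD cells with vehicle were lowest, and the range of ADPKD cells with 666-15 overlapped those of both WT groups. Its log2 fold change was -1.19 ± 0.33 between genotypes with vehicle (edgeR adjusted p = 0.0214) and 1.42 ± 0.33 with 666-15 in ADPKD cells (0.0161). In WT cells the value of 0.92 ± 0.32 did not pass (edgeR adjusted p = 0.0877); it was 1.34 and passed without WT 666-15 replicate 1, and 0.34 without replicate 2, the library with Xist. Atp6v0d2 is also a gene of osteoclasts and some macrophages. The 10 markers of those cells summed to 106 to 139 CPM in WT cells with vehicle and 127 to 129 with 666-15. In ADPKD cells they summed to 239 to 320 with vehicle and 181 to 234 with 666-15. With vehicle, 7 of the 10 were higher and 2 lower in ADPKD cells, against 28.8% and 27.6% of all genes tested. The part of these markers in the result for Atp6v0d2 was not tested.

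Atp6v1g3 was at 69.4 and 70.0 CPM in WT cells with vehicle, 73.2 and 98.8 in WT cells with 666-15, 18.3 and 33.9 in ADPKD cells with vehicle, and 30.7 and 41.1 in ADPKD cells with 666-15. All WT libraries were above all ADPKD libraries, and the 2 ADPKD groups overlapped. The genotypes differed by -1.42 ± 0.30 with vehicle (edgeR adjusted p = 0.00488). The values with 666-15 were 0.46 in ADPKD cells (95% interval from -0.24 to 1.17) and 0.30 in WT cells (from -0.37 to 0.98), and neither passed. The value in ADPKD cells was 0.99 and passed without ADPKD vehicle replicate 2, and was 0.088 without replicate 1 and 0.076 with the GC trend removed.

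In vehicle-treated ADPKD cells the intercalated cell isoforms Atp6v0a4 and Atp6v1c2 also fell, by 1.63 and by 2.98 on the log2 scale (edgeR adjusted p = 4.48e-07 and 8.73e-05). Of the 5 widely expressed partners Atp6v1b2 fell by 0.60 (adjusted p = 0.00011, edgeR), Atp6v0d1 rose by 0.35 (0.00667) and Atp6v0a1 rose by 0.45 (0.00227). Atp6v1g1 (0.03) and Atp6v1c1 (0.08) did not pass, and the sign of both values changed under other settings. All 5 intercalated cell isoforms were thus lower and 1 of the 5 partners was, where 27.6% of all genes tested were lower and 28.8% higher. The call of Atp6v0d1 was lost without WT vehicle replicate 1 (adjusted p = 0.116) or ADPKD vehicle replicate 1 (0.0602).

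With 666-15 in ADPKD cells, Atp6v0a4 rose by 0.52 and Atp6v1c2 by 2.59 in log2 terms, while Atp6v1g1 fell by 0.84 and Atp6v0a1 by 0.46 (all passed, edgeR). Atp6v1b2 rose by 0.27, and Atp6v0d1 (-0.02) and Atp6v1c1 (-0.27) did not pass, although the latter was -0.38 and passed without ADPKD vehicle replicate 1. Left-out libraries changed the smaller of these calls: Atp6v0a4 was lost without ADPKD vehicle replicate 2 or ADPKD 666-15 replicate 2, Atp6v0a1 without ADPKD 666-15 replicate 2, and Atp6v1b2 without any of the 4 libraries compared. In WT cells Atp6v1c2 rose by 1.69 with 666-15, Atp6v0d1 by 1.13 and Atp6v0a1 by 0.38, Atp6v1g1 fell by 0.76, and Atp6v0a4 (0.16), Atp6v1b2 (-0.17) and Atp6v1c1 (-0.19) did not pass. The call of Atp6v0a1 in WT cells was lost without either WT vehicle library or without WT 666-15 replicate 1.

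With 666-15 in both genotypes, Atp6v1b1, Atp6v1g3, Atp6v0a4 (-1.28) and Atp6v1c2 (-2.08) were lower in ADPKD cells by edgeR, while Atp6v1b2 (-0.15), Atp6v1g1 (-0.047) and Atp6v1c1 (-0.0061) did not pass. Here the d pair did not follow the pattern seen with vehicle: the widely expressed Atp6v0d1 fell by 0.81 and Atp6v0d2 (-0.70) did not pass. Atp6v0a1 fell by 0.39, a call lost without ADPKD 666-15 replicate 2 (adjusted p = 0.0755).

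**Figure D5:**
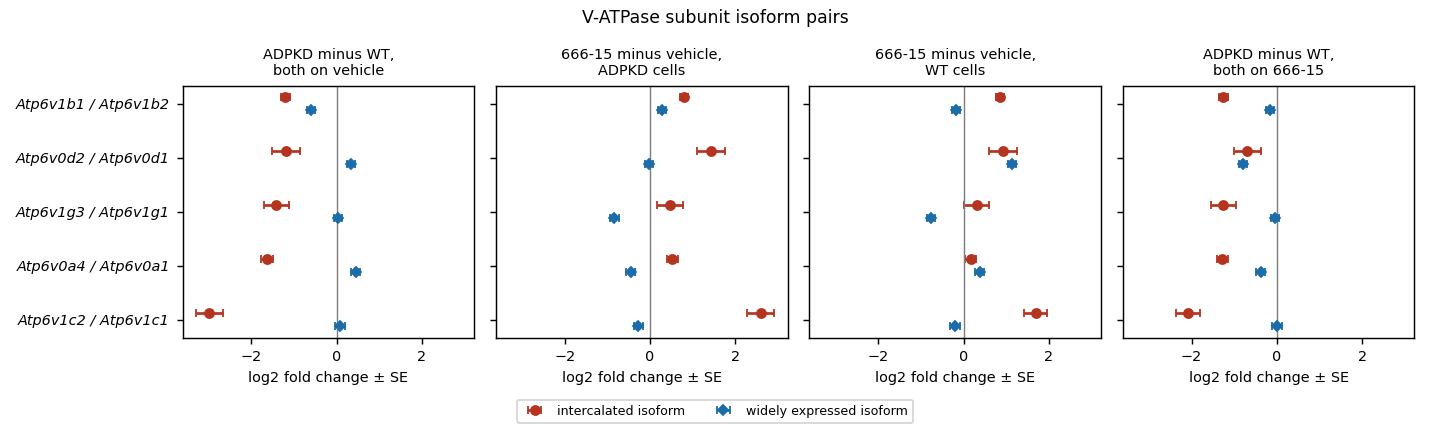
Log2 fold change and standard error (x axis, 1 scale for the 4 panels) of the intercalated cell isoform and the widely expressed isoform of 5 V-ATPase subunits. With vehicle, the intercalated isoforms lie between -2.98 and -1.19 and their partners between -0.60 and 0.45.

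The B subunit pair was tested as a ratio within libraries. Atp6v1b1 to Atp6v1b2 was 0.375 and 0.352 in WT cells with vehicle, 0.743 and 0.729 in WT cells with 666-15, 0.229 and 0.249 in ADPKD cells with vehicle, and 0.333 and 0.351 in ADPKD cells with 666-15. Each ADPKD group was below the WT group of the same treatment. The mean log2 ratio was lower in ADPKD by -0.85 (exact permutation test within treatment, two-sided p = 0.0556, the smallest that 36 arrangements allow), by -0.60 with vehicle and by -1.10 with 666-15.

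Of 25 V-ATPase subunit and accessory genes 24 were tested. In vehicle-treated ADPKD cells 11 were lower and 5 higher (edgeR), with a median of -0.16; over all genes 27.6% were lower and 28.8% higher. Besides those above, Atp6v0e2 (-3.28; -3.96 without ADPKD vehicle replicate 1) and the catalytic subunit gene Atp6v1a (-0.88) fell. With 666-15, 10 rose and 5 fell in ADPKD cells, and 11 rose and 2 fell in WT cells, among them Atp6v0e, which rose by 0.94. Fewer passed in ADPKD cells without ADPKD 666-15 replicate 2, a fit in which fewer of all genes were called too. Over all genes 22.3% rose and 19.1% fell in ADPKD cells, and 13.9% and 11.6% in WT cells. With 666-15 in both genotypes 15 were lower in ADPKD cells and 1 was higher, against 24.5% and 21.8% of all genes. Medians in these 3 comparisons were 0.31, 0.31 and -0.58.

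Rhcg and Rhbg encode channels for ammonia, the main carrier of acid in urine. Rhcg (chr7:79593363-79617657), found in intercalated and in principal cells, was at 143 and 174 CPM in WT cells with vehicle, 714 and 635 in WT cells with 666-15, 141 and 81.1 in ADPKD cells with vehicle, and 156 and 149 in ADPKD cells with 666-15. Only the WT cells with 666-15 stood apart; the other 6 libraries lay between 81.1 and 174 CPM. In WT cells it rose by 2.09 ± 0.24 on the log2 scale (edgeR adjusted p = 0.00071). In ADPKD cells the value was 0.46 (95% interval from -0.10 to 1.02, adjusted p = 0.165), and between genotypes with vehicle it was -0.51 (from -1.07 to 0.04, adjusted p = 0.103, edgeR). The value in ADPKD cells was 0.91 and passed without ADPKD vehicle replicate 1, and was 0.13 without replicate 2. The response in ADPKD cells was smaller than in WT cells by -1.63 ± 0.33 (edgeR adjusted p = 0.0111), a call lost without WT 666-15 replicate 1 (0.0944) or replicate 2 (0.0694). With 666-15 in both genotypes Rhcg was lower in ADPKD cells by -2.14 ± 0.24 (edgeR adjusted p = 0.000292).

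Principal cell markers moved with Rhcg in WT cells. Their summed level was 1197 to 1556 CPM in WT cells with vehicle, 6232 to 6338 in WT cells with 666-15, 1578 to 1924 in ADPKD cells with vehicle and 2044 to 2491 in ADPKD cells with 666-15. Of 11 tested, 10 rose with 666-15 in WT cells and 7 rose and 1 fell in ADPKD cells (edgeR). Of all genes tested 13.9% rose in WT cells, and 22.3% rose and 19.1% fell in ADPKD cells. The principal cell water channel gene Aqp2 rose by 2.40 in WT cells on the log2 scale. The part of the principal cell markers in the result for Rhcg was not tested.

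Rhbg, which encodes the basolateral channel, was the lowest of the 10 genes per length in ADPKD cells with 666-15. It was at 14.7 and 15.6 CPM in WT cells with vehicle, 22.5 and 16.6 in WT cells with 666-15, 2.65 and 2.44 in ADPKD cells with vehicle, and 2.54 and 3.19 in ADPKD cells with 666-15. All 4 ADPKD libraries were far below all 4 WT libraries, and the ADPKD groups overlapped. The genotypes differed by -2.57 ± 0.24 with vehicle (edgeR adjusted p = 1.05e-06) and by -2.77 ± 0.24 with 666-15 (1.48e-06). The values for 666-15 were 0.17 in ADPKD cells (95% interval from -0.40 to 0.74) and 0.37 in WT cells (from -0.08 to 0.82), and neither passed. The ratio of Rhcg to Rhbg counts was 9.72 and 11.1 in vehicle-treated WT cells and between 31.7 and 61.5 in the other 6 libraries.

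Kit, a receptor tyrosine kinase gene used as a surface marker of intercalated cells, passed in the last of the 4 comparisons only. It was at 44.9 and 52.5 CPM in WT cells with vehicle, 67.7 and 82.1 in WT cells with 666-15, 24.0 and 44.3 in ADPKD cells with vehicle, and 45.2 and 46.8 in ADPKD cells with 666-15. The WT cells with 666-15 were highest, and ADPKD vehicle replicate 1 lay below every other library. The values were -0.51 ± 0.25 between genotypes with vehicle (edgeR adjusted p = 0.116), 0.43 for 666-15 in ADPKD cells (0.208) and 0.62 in WT cells (0.105). The value for 666-15 in ADPKD cells was 0.95 and passed without ADPKD vehicle replicate 2, and was 0.058 without replicate 1. The value in WT cells passed at 0.62 when either ADPKD vehicle library was left out of the model. With 666-15 in both genotypes it was lower in ADPKD cells by -0.70 ± 0.25 (adjusted p = 0.0472, edgeR). Kit also marks mast cells. Their 8 markers summed to 17.0 to 18.7 CPM in WT cells with vehicle and 9.17 to 16.0 with 666-15. In ADPKD cells the sums were 4.56 to 5.03 with vehicle and 5.66 to 5.97 with 666-15. Of 3 tested, 1 was higher and 1 lower in vehicle-treated ADPKD cells, against 28.8% and 27.6% of all genes tested. The mast cell genes Mcpt4 and Fcer1a had 0 counts in all libraries and Cpa3 at most 1.

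Levels of different genes were set side by side per length, in CPM per kilobase of exon (RPKM). In vehicle-treated WT cells the order was Rhcg (71.0 RPKM), Slc26a4 (59.6), Atp6v1b1 (44.2), Atp6v1g3 (36.9), Slc4a9 (30.0), Atp6v0d2 (29.4), Foxi1 (16.3), Slc4a1 (12.7), Rhbg (7.83) and Kit (5.46). Neighbours in that order did not overlap between libraries except Slc4a9 and Atp6v0d2. In vehicle-treated ADPKD cells Rhcg (49.7 RPKM) was followed by Atp6v1b1 (19.2), Atp6v1g3 (13.8), Atp6v0d2 (12.9), Slc4a9 (7.20), Foxi1 (6.99), Slc26a4 (5.29), Kit (3.83), Rhbg (1.31) and Slc4a1 (0.0384). There Atp6v1g3 overlapped Atp6v0d2, Slc4a9 overlapped Foxi1, and Foxi1 overlapped Slc26a4. The place of Slc26a4 was thus second in WT and seventh in ADPKD cells, and that of Slc4a1 was eighth and last.

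Among 20 other intercalated cell genes 16 were lower and 3 higher in vehicle-treated ADPKD cells (edgeR), with a median log2 fold change of -1.76, against 27.6% and 28.8% of all genes. The chloride channel subunit gene Bsnd fell by 4.67. With 666-15, 14 rose and 1 fell in ADPKD cells (median 1.598) and 10 rose and none fell in WT cells (median 0.82). Of all genes 22.3% and 13.9% rose in these 2 comparisons. Car2, the gene of the carbonic anhydrase that supplies protons and bicarbonate, rose by 1.59 in ADPKD cells, and Tfcp2l1, a collecting duct transcription factor gene, by 1.28 in ADPKD and 0.90 in WT cells. With 666-15 in both genotypes 13 of the 20 were lower in ADPKD cells and 1 was higher (median -1.32), against 24.5% and 21.8% of all genes.

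The genes whose centred log2 CPM lay nearest to that of a member over the 8 libraries were sought among 13066 named genes, and likeness is the root mean square difference on the log2 scale. Nearest to Foxi1 were Olfm4 (0.119), Gstt3 (0.189) and Rcan2 (0.196). Nearest to Slc26a4 were Arhgap24 (0.316), Ranbp3l (0.331), the pump subunit gene Atp6v1c2 (0.349) and the type A exchanger gene Slc26a7 (0.373). Nearest to Atp6v1b1 were the exchanger gene Slc4a3 (0.117) and Kazn (0.120). For Slc4a1 no gene was as near: Serpina6 (1.08), Snhg11 (1.10), Keg1 (1.11) and Insrr (1.23) came first. Nearness describes these 8 libraries only.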

How the data were processed

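The submitters' processing notes name the aligner HISAT2 2.1.0, the counter featureCounts 1.6.0, DESeq2 and the mouse build mm10. The sources used here do not give the annotation or how strand and multiply mapped reads were handled. The authors' deposited table holds raw counts of 55304 genes in 8 libraries; columns without a treatment in their name were taken as vehicle, since the 666-15 columns are named apart. The protocol in the labels speaks of lectin-positive cells and, in 1 sentence, of whole kidney RNA.

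The counts were fitted with edgeR 4.0.16 under R 4.3.3: filterByExpr (minimum count 10, minimum total 15), TMM scaling, 1 robust quasi-likelihood model of the 4 groups with 4 residual degrees of freedom, and 5 comparisons, two-sided, with Benjamini-Hochberg adjustment over 17440 genes at 0.05. The model was tested on simulated data. Ratios (prior count 1 in the tests) were compared by exact permutation. Positions, exon lengths and GC content came from GENCODE M21 (GRCm38). Every member is described; other genes come from the lists, at most 4 per comparison by smallest p outside the type A and B lists and isoform pairs. The 10 genes and all lists were chosen with earlier results of these data known. Alternatives were RLE scaling, no filter, at least 5 CPM in 2 libraries, no robust option, a replicate block, GC trend removal (lowess, span 0.3), DESeq2 1.42.0, the 2 compared groups alone, each library left out, and a prior count of 5 for ratios. Figures used matplotlib 3.10.9.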

Additional observations from a re-analysis of the deposited data

Results flagged for a closer look

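The response to 666-15 differed between ADPKD and WT cells for 3 of the 10 genes by the interaction term (edgeR's quasi-likelihood test, Benjamini-Hochberg adjustment). Of all genes tested, 13.6% were called for a larger and 13.0% for a smaller value in ADPKD cells. The difference, ADPKD minus WT on the log2 scale, was 4.35 for Slc4a1 (adjusted p = 0.000128), 1.33 for Slc26a4 (0.0228) and -1.63 for Rhcg (0.0111). Slc4a1 and Slc26a4 started lower in vehicle-treated ADPKD cells than in WT cells, and Rhcg rose in both WT libraries with 666-15. Without WT 666-15 replicate 2, the library with Xist, the difference was 0.80 for Slc4a9, 1.10 for Atp6v0d2 and -1.69 for Rhcg. With all libraries these values were 0.47, 0.49 and -1.63. The fit without that library leaves 1 in its group, and by it Slc4a9 and Atp6v0d2 passed and Rhcg did not.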

How the results depend on the processing

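A count of called genes was taken as kept when it lay within 1.5 times the main count, whatever the direction of its calls. A ratio was taken as kept when its sign and its side of 0.05 stayed the same. Its exact permutation p cannot go below 0.0556, so only the sign could change. By these limits 255 values of counts and of ratios were kept over the alternatives, and 2 were not. The exceptions were the number of the 10 genes that passed the interaction, 5 without the filter on low counts against 3, and the number of V-ATPase genes that passed with 666-15 in ADPKD cells, which ran from 7 to 15 when libraries were left out and was lowest without ADPKD 666-15 replicate 2. For single genes 1484 values kept their call, 39 passed only under the alternative, 51 no longer passed and 32 changed sign. None of those 32 had passed the test, and the cause was not tested.

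With the GC trend removed the interaction changed sign for Atp6v1b1 (0.17), Atp6v1g3 (-0.19) and Rhbg (0.23), and the value of Atp6v0d1 for 666-15 in ADPKD cells became 0.17; without the filter that value was 0.013. With vehicle, ADPKD minus WT was -0.0069 for Atp6v1g1 with RLE scaling and with DESeq2, -0.0066 without the filter and -0.047 in a fit of the 2 groups alone, where Atp6v1c1 was at -0.0020. With 666-15 in both genotypes Atp6v1c1 was at 0.0065 with RLE scaling and with DESeq2, 0.0050 with at least 5 CPM in 2 libraries and 0.00033 in a fit of the 2 groups alone. When libraries were left out in turn, the interaction ran from -0.11 to 0.033 for Atp6v1b1, from -0.21 to 0.69 for Atp6v1g3, from -0.38 to 0.051 for Rhbg and from -0.56 to 0.34 for Kit. Likewise Atp6v1g1 and Atp6v1c1 with vehicle ran from -0.062 to 0.091 and from -0.070 to 0.18, and with 666-15 in both genotypes from -0.13 to 0.035 and from -0.084 to 0.069. Atp6v0d1 with 666-15 in ADPKD cells ran from -0.046 to 0.033, and Atp6v0a4 in WT cells from -0.0031 to 0.31.

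The main model did not pair libraries by replicate number. The differences between replicates correlated at -0.037 to 0.081 between groups over 11199 genes, which cannot exclude a pairing with a small effect. With the replicate number as a block, 9 of the 10 genes passed between genotypes with vehicle and 10 with 666-15, all lower in ADPKD cells. For 666-15 against vehicle 8 passed in ADPKD cells and 8 in WT cells, all higher with 666-15, and 3 passed in the interaction. The share of all genes called with the block is not given here. These counts are therefore no measure of how the 10 genes compare with other genes. The exact permutation p of both ratios was then 0.125.

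With 2 libraries per group, intervals are wide, and Slc4a1 in vehicle-treated ADPKD cells rests on 2 and 5 counts.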
